A study of Mus musculus with 48 samples.

Results

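Arginine sits at a branch point of macrophage metabolism, and 7 genes around it were followed here in cultured mouse liver macrophages: the arginases Arg1 and Arg2, the inducible nitric oxide synthase Nos2, argininosuccinate synthase Ass1, the cationic amino acid transporters Slc7a1 and Slc7a2, and ornithine decarboxylase Odc1. They were found by gene symbol in the array annotation. Of the 7 genes listed, 6 had a probe set, 1 each, among the 19505 genes with a symbol, and Ass1 was not analysed here.

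Arginases split arginine into urea and ornithine, which feeds polyamine synthesis through Odc1 and proline synthesis through ornithine aminotransferase. Nitric oxide synthase uses the same arginine to make nitric oxide and citrulline, and argininosuccinate synthase together with argininosuccinate lyase turns citrulline back into arginine. In mouse macrophages a high Arg1 is a mark of cells that received interleukin 4, and a high Nos2 of cells that received interferon gamma with bacterial products. Arg1 is also the hepatocyte arginase of the urea cycle.

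Macrophages of 2 origins were compared: Kupffer cells, which live in the liver sinusoids, taken from BALB/c males by magnetic sorting for F4/80, and macrophages grown from blood monocytes of those mice, sorted for CD115. Both were given macrophage colony-stimulating factor (MCSF) for 1 day and then kept for 1 or 3 more days with hepatocyte growth factor (HGF), with Ito cells (hepatic stellate cells, which store vitamin A) or with CD146 cells (sinusoidal endothelial cells of the liver). The controls stayed in MCSF, for 2 or 4 days in all. This gave 16 groups of 3 arrays each, 48 arrays, whose titles call the replicates biological. The labels leave unsaid whether the added cells were separated from the macrophages before lysis and whether MCSF was still present beside an addition. Several cultures may have come from the same animals, and the p-values measure the spread between these cultures.

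Slc7a1 and Odc1 were both higher than the 3-day control in most 3-day cultures with an addition. For them the 250 bases before the transcription start are shown, because their promoters are the ones of the measured genes found in the RefSeq sequence table (GRCm38.p6). Capitals mark every match, on either strand, to the motifs searched: the E-box CACGTG, the GC box GGGCGG, the CRE half-site TGACG, the TATA box TATAAA and the CCAAT box CCAAT. The Slc7a1 stretch lies at chr5:148399905-148400154 on the minus strand and the Odc1 stretch at chr12:17544623-17544872 on the plus strand, both 5' to 3' and directly upstream of the gene's outermost start.
Slc7a1: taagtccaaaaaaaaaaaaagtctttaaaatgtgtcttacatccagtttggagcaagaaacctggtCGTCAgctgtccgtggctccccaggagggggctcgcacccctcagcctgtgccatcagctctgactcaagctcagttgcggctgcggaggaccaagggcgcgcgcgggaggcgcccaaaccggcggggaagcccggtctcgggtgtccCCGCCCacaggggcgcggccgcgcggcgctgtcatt
Odc1: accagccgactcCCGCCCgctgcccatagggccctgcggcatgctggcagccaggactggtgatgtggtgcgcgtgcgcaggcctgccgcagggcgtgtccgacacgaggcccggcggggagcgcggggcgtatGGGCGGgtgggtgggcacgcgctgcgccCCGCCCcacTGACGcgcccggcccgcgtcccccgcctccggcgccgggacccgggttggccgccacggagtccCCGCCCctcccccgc
The Slc7a1 stretch held 1 GC box, 36 to 31 bases before the start, and 1 CRE half-site, 184 to 180 bases before it, both on the opposite strand. The Odc1 stretch held 4 GC boxes and 1 CRE half-site, the latter 79 to 75 bases before the start. Of 32841 mouse promoter stretches of this length, 32.7% held a GC box and 17.8% a CRE half-site, so both motifs are common, and these matches are a description of the letters and not of binding. Neither stretch held the E-box, the TATA box or the CCAAT box. A second Slc7a1 start was also found, whose stretch at chr5:148392816-148393065 is not shown. It held a TATA box 28 to 23 bases before that start and no other match, where 12.4% of all stretches held a TATA box.

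Every value below is a log2 signal, so a difference of 1 is a doubling, and levels of different probe sets are not set against each other. The deposited values ran from 0.88 to 19.93, with 29 values at the upper end, where the scale stops. As a floor, the mean of 5222 negative control probes was 5.07 to 6.15 on the single arrays. Core macrophage markers were above that floor in all 16 groups (15 of 15 genes). Clec4f, 1 of several Kupffer cell markers listed, was under it in all 16, at 2.76 to 3.52. The other Kupffer cell markers are not given here, and 1 probe set does not describe the state of these cells. Single arrays stood apart from their groups in 3 places: replicate 1 of the Kupffer control of 1 day, replicate 2 of Kupffer cells with HGF for 1 day, and replicate 3 of the monocytic control of 3 days. Differences from the controls concerned, and other results that these arrays move clearly, are in most cases also given without 1 or all of them. Differences are given as the mean of 1 group minus that of the other, ± the limma SE (n = 3 per group), and words for a rise, a fall, a higher or a lower level are kept for an adjusted p under 0.05.

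**Figure D1:**
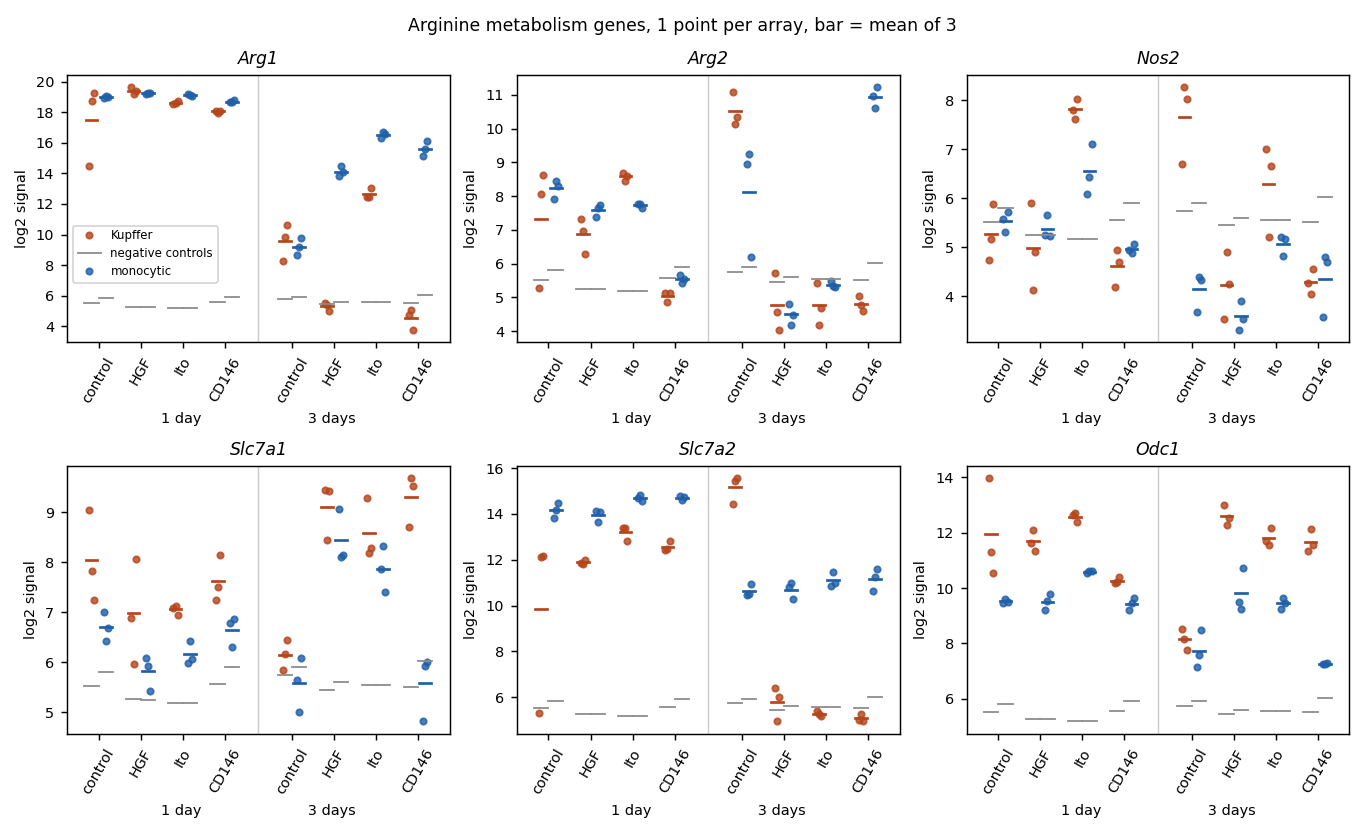
Log2 signal of the 6 measured genes on each of the 48 arrays (vertical axes), by addition and by day (horizontal axes). Points are arrays, coloured bars the means of 3 and grey bars the negative control mean of the group. Arg1 lies above 14 on every array of 1 day and spreads between 3.74 and 16.69 at 3 days.

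Arg1, the cytosolic arginase, read above 14 on every 1-day array and separated by origin and addition at 3 days. After 3 days it remained at 13.83 or more in monocytic macrophages with any of the 3 additions, lay between 8.25 and 10.62 on the arrays of both controls, and was at the level of the negative controls in Kupffer cells with HGF or CD146 cells. At 1 day the monocytic control arrays read 18.95, 19.07 and 18.99, and those with HGF read 19.17, 19.28 and 19.30. Monocytic arrays with Ito cells read 19.21, 19.14 and 19.10, and those with CD146 cells 18.65, 18.68 and 18.79. These 4 groups lie close together and close to the upper end of the scale, which leaves little room for a further rise to be seen. In Kupffer cells the 1-day arrays with HGF read 19.68, 19.20 and 19.39, with Ito cells 18.52, 18.60 and 18.74, and with CD146 cells 18.12, 17.96 and 18.11. The Kupffer control of 1 day read 14.46, 18.77 and 19.27, and its replicate 1 is the low value.

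At 3 days the Arg1 signals were far apart. The Kupffer control read 8.25, 9.83 and 10.62 and the monocytic control 8.68, 9.17 and 9.74, with overlapping ranges. Kupffer cells with HGF read 5.52, 5.36 and 5.01, and with CD146 cells 4.72, 5.04 and 3.74, where 1 of 3 and 0 of 3 arrays exceeded their own negative controls. Kupffer cells with Ito cells lay above their control on every array, at 12.47, 12.48 and 13.07. Monocytic macrophages read 13.83, 14.46 and 14.09 with HGF, 16.33, 16.69 and 16.60 with Ito cells, and 15.12, 15.60 and 16.10 with CD146 cells, so that no array of these 3 groups came near the control range. In order of their means the 3-day groups were monocytic with Ito cells, with CD146 cells and with HGF, Kupffer with Ito cells, both controls, and Kupffer with HGF and with CD146 cells. Neighbours in this order overlapped within the pair of controls and within the lowest pair, and nowhere else.

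Against the control of 3 days, Arg1 fell in Kupffer cells with HGF (-4.27 ± 0.59, adjusted p = 1.46e-07) and with CD146 cells (-5.07 ± 0.59, adjusted p = 3.28e-09). Since both groups lie at the floor, the falls are at least 17.3-fold and at least 16.6-fold, measured from the negative controls. It rose in Kupffer cells with Ito cells (3.11 ± 0.59, adjusted p = 5.21e-05). In monocytic macrophages it rose with HGF (4.93 ± 0.59, adjusted p = 6.93e-08), with Ito cells (7.34 ± 0.59, adjusted p = 4.42e-12) and with CD146 cells (6.41 ± 0.59, adjusted p = 1.48e-09). Without the 3 arrays that stood apart these monocytic rises were 5.20, 7.61 and 6.68. The 3 additions of an origin and day share their control arrays. In RNA of whole cultures, fewer cells that express a gene and less of its RNA per cell cannot be told apart.

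At 1 day, 1 Arg1 comparison passed, the rise in Kupffer cells with HGF (1.92 ± 0.59, adjusted p = 0.0207), and its groups overlap. Without replicate 1 of the control the difference was 0.40 (adjusted p = 0.461), and without replicate 2 of the HGF group it was 2.03 (adjusted p = 0.0629). From 1 to 3 days Arg1 fell in all 8 cultures, by the smallest amount in monocytic macrophages with Ito cells (-2.61 ± 0.59, or -3.05 relative to the median gene) and down to the negative controls in Kupffer cells with HGF, by at least 16000-fold, and with CD146 cells, by at least 6010-fold. The median gene itself was 0.13 to 0.71 higher at 3 days in these 8 comparisons, and 38.3% of all gene and comparison pairs passed, so the share that passed among the 6 genes, 39 of 48, is read against a high background. Of these 39, 10 were higher and 29 lower, where 30.8% of all pairs were higher and 7.53% lower. Centring each array on its median gene turned the split over all genes, from 80.3% to 42.3% of the calls higher, but left 9 higher and 32 lower among the 6 genes. All 6 passed in the Kupffer control (31.8% of all genes), 4 in Kupffer cells with HGF (42.7%), 5 with Ito cells (48.6%) and 4 with CD146 cells (24.6%). In monocytic macrophages 5 passed in the control (29.3%), 5 with HGF (60.6%), 6 with Ito cells (41.5%) and 4 with CD146 cells (27.2%).

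Markers of other cells also differed between the Kupffer cultures. Those of Ito cells and of sinusoidal endothelial cells, the cells that were added, are not given here. The 18 hepatocyte markers had a mean level of 6.16 to 7.71 on the 1-day Kupffer control arrays, 6.23 to 7.0 with HGF for 3 days and 4.30 to 4.54 in the 3-day control, against 3.56 to 4.87 on all monocytic arrays. Of these 18 markers, 14 were above the floor in the 1-day Kupffer control, 11 with HGF for 3 days, 8 with Ito cells, 4 with CD146 cells and 1 in the 3-day control. Albumin (Alb) read 14.94 in the 1-day Kupffer control, 12.97 with HGF for 3 days, 12.77 with Ito cells and 8.63 with CD146 cells, against 4.58 in the 3-day control. The hepatocyte urea cycle enzymes Cps1 (2.27 to 3.41) and Otc (2.09 to 3.32) were under the negative controls in all 16 groups. This held also in the 1-day Kupffer control, where albumin was high, so their probe sets give no measure of hepatocyte content here. The mean of 15 core macrophage markers was 16.41 to 16.75 in the 3-day Kupffer control, 13.67 to 13.99 with HGF, 14.20 to 14.30 with Ito cells and 13.43 to 13.55 with CD146 cells. The mean of 11 neutrophil markers was 10.48 to 11.46 with Ito cells for 3 days, 7.16 to 8.69 with HGF or CD146 cells, and 5.48 to 5.57 in the control. In monocytic macrophages of 3 days the core macrophage mean stayed between 15.58 and 16.37, and 1 or 2 of 18 hepatocyte markers were above the floor. The part of these cells in the Kupffer result was not tested.

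Arg2, the mitochondrial arginase, did not follow Arg1. It was lower at 3 days in Kupffer cells with every addition, and in monocytic macrophages it was lower with HGF and Ito cells but higher with CD146 cells. The Kupffer control of 3 days read 11.07, 10.13 and 10.34, against 5.71, 4.57 and 4.03 with HGF, 5.42, 4.19 and 4.68 with Ito cells, and 5.04, 4.76 and 4.59 with CD146 cells. With each addition it thus lay under the negative controls (-5.75 ± 0.53, -5.75 ± 0.53 and -5.72 ± 0.53, largest adjusted p = 1.78e-11), a fall of at least 31.2-fold in each. Monocytic macrophages with CD146 cells for 3 days held the highest Arg2 mean of all groups, at 10.96, 10.62 and 11.24, and the range of the Kupffer control overlaps it.

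The monocytic control of 3 days read 8.95, 9.25 and 6.20 for Arg2, with replicate 3 low. With HGF the arrays read 4.81, 4.19 and 4.48 and with Ito cells 5.47, 5.33 and 5.31, each below the whole control range. Both of these groups lie under the negative controls, so Arg2 fell by at least 5.8-fold with HGF (fitted difference -3.64 ± 0.53, adjusted p = 4.29e-06) and by at least 6.01-fold with Ito cells (-2.76 ± 0.53, adjusted p = 0.000272). It rose with CD146 cells (2.81 ± 0.53, adjusted p = 0.00107). Without replicate 3 of the control the rise was 1.84 (adjusted p = 0.0292). Without the 3 arrays that stood apart the differences were -4.60, -3.73 and 1.84, all called.

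At 1 day CD146 cells had the opposite sign on Arg2 in monocytic macrophages. There the arrays read 5.66, 5.42 and 5.54 against 7.92, 8.46 and 8.30 in the control (-2.68 ± 0.53, adjusted p = 0.00156), a fall of at least 4.99-fold from the negative controls. Kupffer cells with CD146 cells read 5.14, 4.87 and 5.13 against 5.29, 8.07 and 8.62 (-2.28 ± 0.53, adjusted p = 0.0068), a fall of at least 3.41-fold. The Kupffer call was lost without control replicate 2 (-1.91, adjusted p = 0.0637) or control replicate 3 (-1.63, adjusted p = 0.101), and without the arrays that stood apart it was -3.30. Kupffer cells with HGF read 7.33, 6.98 and 6.29 for Arg2, and the difference from control did not pass. Without the arrays that stood apart it was lower (-1.54 ± 0.36, adjusted p = 0.00575). Between 1 and 3 days Arg2 then rose in the monocytic CD146 cultures by at least 32.8-fold from the negative controls (5.40 ± 0.53, or 5.22 relative to the median gene), and it rose in the Kupffer control (3.19 ± 0.53; 2.17 ± 0.33 without the arrays that stood apart). Arg2 fell in 4 of the 8 cultures. The falls were at least 2.67-fold and 8.18-fold in Kupffer cells with HGF and Ito cells. In monocytic macrophages with HGF and Ito cells they were at least 3.99-fold and 4.54-fold.

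Nos2, the inducible nitric oxide synthase, was low throughout, with 11 of the 16 group means under the negative controls. Its highest group was Kupffer cells with Ito cells for 1 day, at 7.80, 7.63 and 8.03, followed by the Kupffer control of 3 days, at 6.70, 8.28 and 8.03, and these ranges overlap. In that control Nos2 rose from 1 to 3 days by at least 4.44-fold. The 1-day Kupffer control read 4.75, 5.18 and 5.88, below all 3 arrays with Ito cells (2.55 ± 0.41, adjusted p = 1.38e-05; 2.29 ± 0.42 without the arrays that stood apart). The rise is at least 4.93-fold from the negative controls. Monocytic macrophages with Ito cells for 1 day read 6.09, 6.43 and 7.11 against 5.57, 5.31 and 5.73, a difference of 1.01 ± 0.41 that did not pass (adjusted p = 0.0881) while the groups did not overlap. Without the 3 arrays that stood apart it was the same size and passed (adjusted p = 0.0434). The Kupffer response exceeded the monocytic one by 1.54 ± 0.58, which did not pass (adjusted p = 0.131).

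At 3 days Nos2 was lower in Kupffer cells with every addition than in the control. With HGF the arrays read 3.54, 4.90 and 4.25 (-3.44 ± 0.41, adjusted p = 6.57e-09) and with CD146 cells 4.28, 4.04 and 4.55 (-3.38 ± 0.41, adjusted p = 9.58e-09), all under their negative controls, so that the falls are at least 4.65-fold and 4.46-fold. With Ito cells they read 7.0, 5.22 and 6.66, which overlaps the control (-1.38 ± 0.41, adjusted p = 0.00918). That call was lost without control replicate 2 (-1.07, adjusted p = 0.0877), control replicate 3 (-1.20, adjusted p = 0.0588) or Ito replicate 2 (-0.84, adjusted p = 0.162). In monocytic macrophages of 3 days all 4 groups were under the negative controls and no Nos2 difference from the control passed (-0.55, 0.93 and 0.22, each ± 0.41).

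Slc7a2, the transporter that brings arginine into activated macrophages, was high in the 3-day Kupffer control and at or near the floor with each addition. The control arrays read 14.45, 15.45 and 15.57. With HGF they read 6.41, 4.94 and 6.01, with Ito cells 5.38, 5.28 and 5.18, and with CD146 cells 4.98, 5.26 and 4.96. No array with an addition came within 8 log2 units of the control range, and the Slc7a2 differences are the largest of the 6 genes against control: -9.37 ± 0.78 with HGF, -9.88 ± 0.78 with Ito cells and -10.09 ± 0.78 with CD146 cells (largest adjusted p = 6.84e-13). With HGF the mean was 5.79 against 5.45 for the negative controls. From the negative controls the falls with Ito and CD146 cells are at least 780-fold and 801-fold.

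Monocytic macrophages did not show this Slc7a2 difference. Their 3-day control read 10.47, 10.52 and 10.94, against 10.83, 10.97 and 10.30 with HGF, 10.87, 11.46 and 10.97 with Ito cells, and 10.65, 11.23 and 11.61 with CD146 cells, and all ranges overlap. The differences were 0.05, 0.46 and 0.52 (each ± 0.78), with 95% intervals that together run from -1.52 to 2.09. Without the 3 arrays that stood apart they were 0.20, 0.60 and 0.67 (each ± 0.31), and none passed. At 1 day Slc7a2 was between 13.64 and 14.84 on the 12 monocytic arrays and between 11.80 and 13.40 on the 9 Kupffer arrays with an addition. The 1-day Kupffer control read 5.29, 12.14 and 12.15, and the low replicate 1 weighs on every comparison with it. Slc7a2 was higher with Ito cells (3.33 ± 0.78, adjusted p = 0.00163) and with CD146 cells (2.71 ± 0.78, adjusted p = 0.0373), but without that replicate the values were 1.05 (adjusted p = 0.0185) and 0.42 (adjusted p = 0.625). From 1 to 3 days Slc7a2 rose in the Kupffer control (5.30 ± 0.78; 3.01 without that replicate) and fell in the other 7 cultures, by 3.24 to 7.92.

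Slc7a1, the general arginine transporter, and Odc1, the first enzyme of polyamine synthesis, went the other way. Against the 3-day control both were higher in Kupffer cells with every addition and in monocytic macrophages with HGF and Ito cells. Neither passed in monocytic macrophages with CD146 cells. From 1 to 3 days Odc1 was lower in 4 of 8 cultures and higher in 1. Its mean fell in the Kupffer control (11.94 to 8.15) and in the monocytic control (9.52 to 7.73). In Kupffer cells with HGF (11.70 to 12.60) and Ito cells (12.58 to 11.81) it did not pass. Without the arrays that stood apart both passed (1.11 and -0.77). Slc7a1 was lower in both controls and higher in 5 cultures. Slc7a1 read 5.84, 6.17 and 6.45 in the Kupffer control and 9.45, 8.45 and 9.42 with HGF, 9.29, 8.19 and 8.28 with Ito cells, and 8.70, 9.68 and 9.53 with CD146 cells. Odc1 read 8.51, 8.17 and 7.77 in that control and 12.99, 12.27 and 12.55 with HGF, 11.71, 11.54 and 12.17 with Ito cells, and 11.34, 12.13 and 11.57 with CD146 cells. Every Kupffer array with an addition lay above the control range for both genes. The differences were 2.95, 2.43 and 3.15 (each ± 0.42) for Slc7a1 and 4.45, 3.66 and 3.53 (each ± 0.44) for Odc1 with HGF, Ito cells and CD146 cells, the largest adjusted p being 1.23e-05.

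The monocytic control of 3 days read 5.65, 5.0 and 6.09 for Slc7a1 and 7.15, 7.59 and 8.47 for Odc1. With HGF, Slc7a1 read 9.06, 8.11 and 8.15 and Odc1 9.48, 9.23 and 10.71. With Ito cells, Slc7a1 read 7.87, 8.32 and 7.41 and Odc1 9.23, 9.65 and 9.46. All these arrays lay above the control range. With CD146 cells, Slc7a1 read 4.82, 5.93 and 6.01, which overlaps the control, and Odc1 read 7.25, 7.25 and 7.29, within it. The Slc7a1 control lay under the negative controls (5.58 against 5.90), so that its rises are at least 5.81-fold with HGF (fitted difference 2.86 ± 0.42, adjusted p = 4.41e-06; 3.12 without the 3 arrays that stood apart) and at least 3.91-fold with Ito cells (2.29 ± 0.42, adjusted p = 0.000139; 2.55 without them), but the CD146 difference was 0.01 ± 0.42 (95% interval -0.84 to 0.86). Odc1 rose with HGF (2.07 ± 0.44, adjusted p = 0.000817; 2.44 without the 3 arrays) and Ito cells (1.71 ± 0.44, adjusted p = 0.00527), and the CD146 difference was -0.47 ± 0.44 (95% interval -1.35 to 0.41). The Odc1 rise with Ito cells was lost without control replicate 1 (1.42, adjusted p = 0.07), and without the 3 arrays that stood apart it was 2.08.

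At 1 day Odc1 showed another order. Kupffer cells with Ito cells read 12.63, 12.72 and 12.38, and Kupffer controls 13.98, 11.29 and 10.56. The difference with Ito cells was 0.63 ± 0.44 and did not pass, but 1.65 ± 0.29 without the arrays that stood apart, which passed. With CD146 cells Odc1 was lower (-1.68 ± 0.44, adjusted p = 0.0168), a call lost without control replicate 1 (-0.66, adjusted p = 0.344) or without CD146 replicate 1 (-1.64, adjusted p = 0.0697) or 2 (-1.65, adjusted p = 0.0683). No Slc7a1 difference from control passed at 1 day. Without the arrays that stood apart Slc7a1 was lower in monocytic macrophages with HGF (-0.88, adjusted p = 0.0331), where the median gene differed by -0.55. Odc1 was then higher in monocytic macrophages with Ito cells (1.07, adjusted p = 0.00275).

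Genes of the cell cycle moved with Slc7a1 and Odc1 at 3 days. The mean of 18 cell cycle genes was 7.0 to 7.08 in the Kupffer control and 11.96 to 12.81 with the 3 additions, and in monocytic macrophages it was 10.49 to 11.57 with HGF or Ito cells and 6.86 to 7.23 with CD146 cells. All 18 passed as higher with each addition in Kupffer cells, 15 with HGF and 17 with Ito cells in monocytic macrophages, and 0 with CD146 cells, where 1 was lower. Of all genes 27.6%, 26.8% and 26.4% passed in the Kupffer comparisons and 13%, 12.5% and 2.4% in the monocytic ones. The monocytic control read 6.89, 7.06 and 11.71. Its replicate 3, which holds the high cell cycle mean and stood apart from its group, has the highest Slc7a1 (6.09) and Odc1 (8.47) of that group. Odc1 was also 12.38 to 12.72 in Kupffer cells with Ito cells for 1 day, where the cell cycle mean was 7.95 to 8.02. The part of dividing cells in the rise of either gene was not tested.

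**Figure D2:**
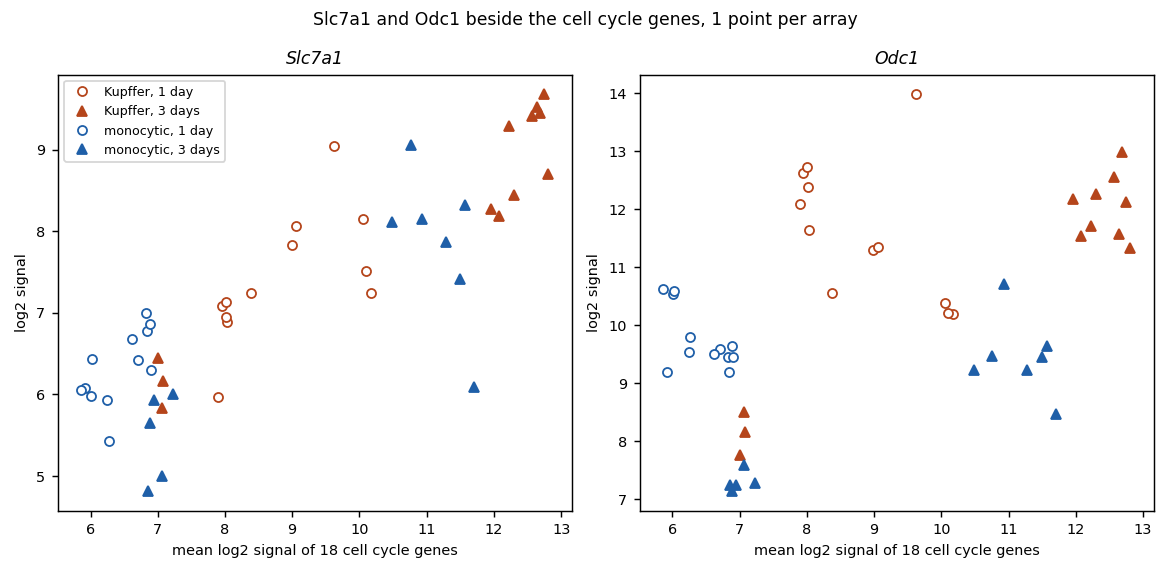
Log2 signal of Slc7a1 (left) and Odc1 (right) against the mean log2 signal of 18 cell cycle genes, 1 point per array, open circles for 1 day and filled triangles for 3 days. Orange stands for Kupffer cells and blue for monocytic macrophages. The 3-day cultures of monocytic macrophages with CD146 cells lie at 6.86 to 7.23 on the horizontal axis and all others with an addition at 10.49 or more, as does replicate 3 of the monocytic control (11.71), and Odc1 is also high in Kupffer cells with Ito cells for 1 day, at 12.38 to 12.72.

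**Figure D3:**
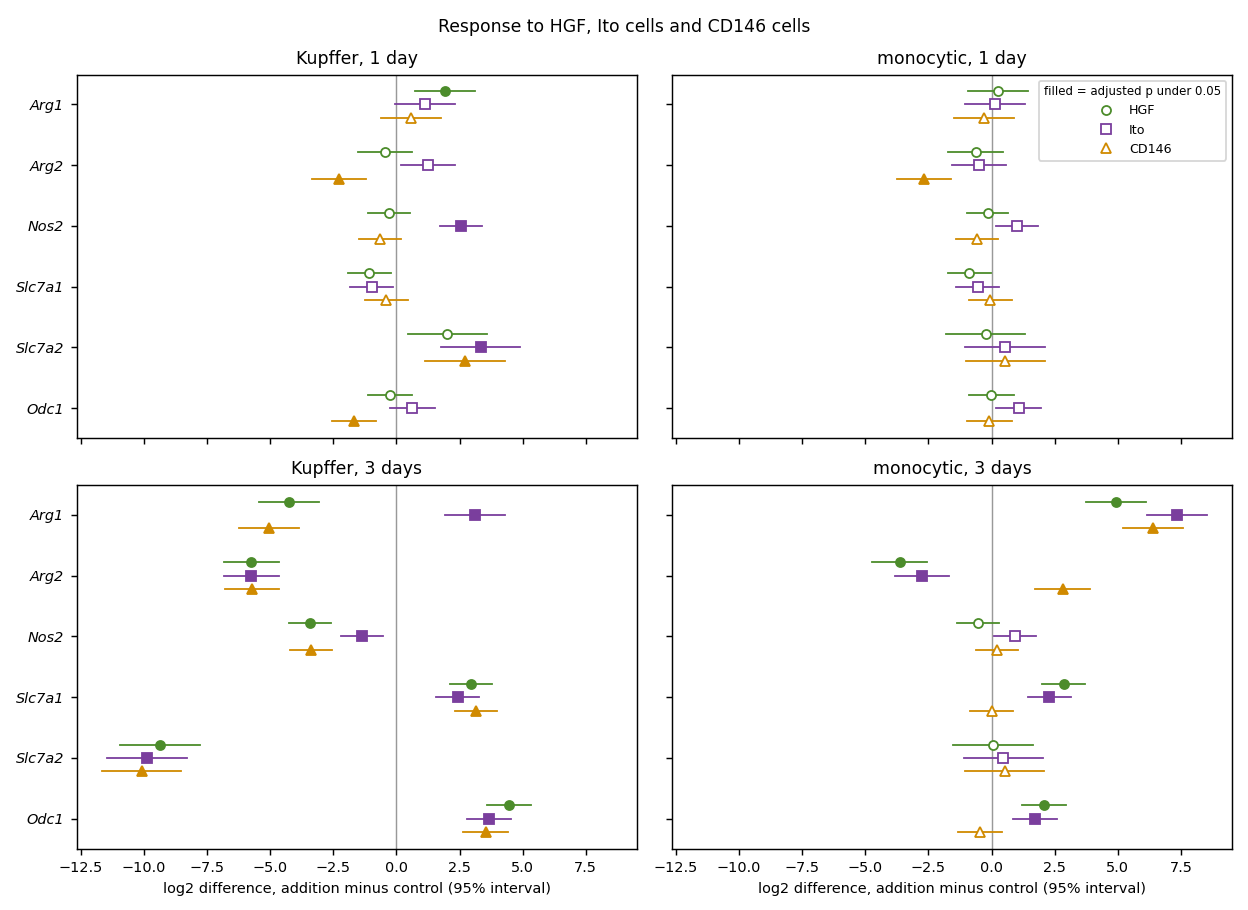
Log2 difference of each addition from the control of the same cell and day, with 95% intervals, for Kupffer cells (left) and monocytic macrophages (right) at 1 day (top) and 3 days (bottom). Filled symbols passed the threshold. At 3 days all 18 Kupffer symbols are filled, against 10 of 18 for monocytic macrophages.

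Counted over the 12 comparisons with a control, 35 of 72 gene and comparison pairs passed, 19 higher and 16 lower, where 17.4% of such pairs over all genes did, 5.96% higher and 11.4% lower. With median centring the calls of the 6 genes were 21 higher and 16 lower, and the share of higher calls over all genes went from 34.3% to 50.9%. At 3 days all 6 genes passed in Kupffer cells with HGF, Ito cells and CD146 cells, against 27.6%, 26.8% and 26.4% of all genes. In monocytic macrophages of 3 days 4 of 6 passed with HGF (13% of all genes), 4 with Ito cells (12.5%) and 2 with CD146 cells (2.4%). At 1 day 1 of 6 passed in Kupffer cells with HGF (17.5% of all genes), 2 with Ito cells (23.5%) and 3 with CD146 cells (3.78%). In monocytic macrophages of 1 day 0 of 6 passed in limma with HGF (37.5%) and 0 with Ito cells (15.5%), where 1 and 2 genes had an unadjusted p under 0.05, and 1, Arg2, passed with CD146 cells (2.33%). The median gene itself differed from the control by more than 0.1 in 5 of the 12 comparisons: by -0.55 and -0.28 in monocytic macrophages with HGF and Ito cells for 1 day, by -0.17 and -0.24 in Kupffer cells likewise, and by 0.11 in Kupffer cells with Ito cells for 3 days. Relative to it, Arg1 with HGF in Kupffer cells of 1 day differed by 2.09, and Nos2 and Slc7a2 with Ito cells by 2.79 and 3.58. In Kupffer cells with Ito cells for 3 days the relative differences were 2.99 for Arg1, -5.86 for Arg2, -1.49 for Nos2, 2.32 for Slc7a1, -9.99 for Slc7a2 and 3.54 for Odc1.

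The 2 origins were then compared directly. In the controls of 3 days, Kupffer cells had more Slc7a2 (4.51 ± 0.78, adjusted p = 2.83e-05), Nos2 (3.53 ± 0.41, adjusted p = 1.09e-08) and Arg2 (2.38 ± 0.53, adjusted p = 0.00123) than monocytic macrophages. Nos2 was under the negative controls in the latter, so its difference is at least 3.41-fold. The Arg2 difference was 1.41 without replicate 3 of the monocytic control (adjusted p = 0.0514). Arg1, Slc7a1 and Odc1 did not pass there (0.37 ± 0.59, 0.57 ± 0.42 and 0.41 ± 0.44). Of all genes 12.1% passed in this comparison of controls. Over the 8 comparisons by origin 21 of 48 pairs passed, 12 higher and 9 lower in Kupffer cells, against 19.9% over all genes (11.6% higher and 8.26% lower). With median centring the split was 11 higher and 13 lower, and over all genes the share of higher calls went from 58.4% to 33.9%.

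With an addition for 3 days the order of the origins in the arginine importer Slc7a2 was opposite to that of the 3-day controls. Arg1, which had not passed between those controls, was lower in Kupffer cells. Slc7a2 was lower in Kupffer cells than in monocytic macrophages with HGF (-4.91 ± 0.78), Ito cells (-5.82 ± 0.78) and CD146 cells (-6.10 ± 0.78), and Arg1 by -8.82, -3.87 and -11.11 (each ± 0.59). Measured from the negative controls, under which Kupffer cells lay, the Slc7a2 differences with Ito and CD146 cells are at least 46.9-fold and 50.3-fold, and the Arg1 differences with HGF and CD146 cells at least 408-fold and 1100-fold. Odc1 was higher in Kupffer cells with each (2.80, 2.36 and 4.42, each ± 0.44). These 9 differences passed, the largest adjusted p being 0.00012, where 20% of all genes passed with HGF, 8.81% with Ito cells and 25.8% with CD146 cells. At 1 day Odc1 was higher in Kupffer cells in the control (2.42; 1.41 without its replicate 1), with HGF (2.18) and with Ito cells (1.99), each ± 0.44, and with CD146 cells the difference of 0.84 did not pass (adjusted p = 0.206). Slc7a2 was already lower in Kupffer cells at 1 day in the control (-4.31, or -2.02 without its replicate 1) and with HGF (-2.06). These calls were lost under 1 and 4 of 15 alternatives. Without the 3 arrays that stood apart Slc7a2 was also lower with Ito cells (-1.51) and CD146 cells (-2.14). Of all genes 21.3%, 53.8%, 3% and 14.2% passed in these 4 comparisons of 1 day, and the median gene was 0.40 higher in Kupffer cells in the one with HGF.

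Whether the origins responded differently to the same addition was tested as the Kupffer response minus the monocytic response. At 3 days 15 of 18 pairs passed, 4 higher and 11 lower, and at 1 day 0 of 18 passed, against 11.6% of pairs over all genes and both days (7.45% higher and 4.2% lower). Median centring left 3 higher and 12 lower, and took the share of higher calls over all genes from 64% to 48.6%. The shares of all genes were 15.2% with HGF, 8.75% with Ito cells and 18.2% with CD146 cells at 3 days, and 23.1%, 3.74% and 0.877% at 1 day. At 1 day 6 of the 18 pairs had an unadjusted p under 0.05 in limma, among them Slc7a2 with Ito cells (2.80 ± 1.10), which rests on the Kupffer control with its low replicate. For Arg1 the differences of 3 days were -9.19 with HGF, -4.24 with Ito cells and -11.48 with CD146 cells (each ± 0.83, largest adjusted p = 0.000319). For Slc7a2 they were -9.43, -10.33 and -10.61 (each ± 1.10, largest adjusted p = 1.75e-08). For Slc7a1 the responses to HGF and Ito cells differed by 0.09 and 0.15 (each ± 0.59), with 95% intervals of -1.11 to 1.30 and -1.06 to 1.35, and the response to CD146 cells by 3.14 ± 0.59 (adjusted p = 7.62e-05).

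**Figure D4:**
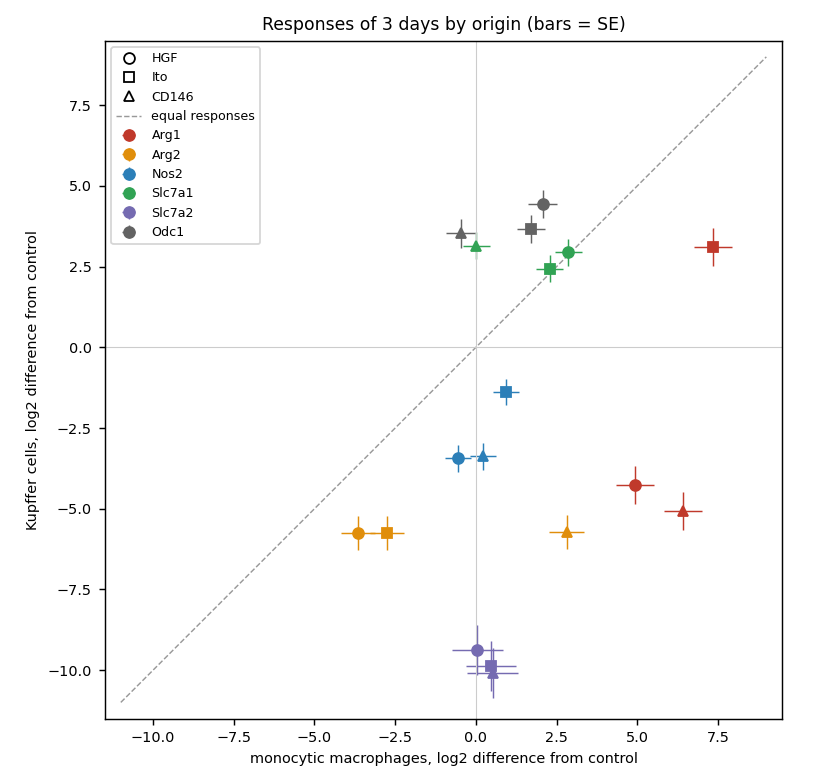
Response of Kupffer cells (vertical) against that of monocytic macrophages (horizontal) after 3 days, as log2 differences from the control ± SE, colours for genes and symbols for additions. Slc7a1 with HGF and Ito cells lies near the dashed line of equal responses, the 3 Slc7a2 points lie at -9.37 to -10.09 for Kupffer cells and 0.05 to 0.52 for monocytic macrophages, and Arg1 lies right of the line throughout.

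The additions were also set against each other. In Kupffer cells of 3 days 0 of 6 genes passed in limma between HGF and CD146 cells (1.12% of all genes passed), and 1, Odc1, had an unadjusted p under 0.05. The differences lay between -0.20 for Slc7a1 (95% interval -1.04 to 0.65) and 0.92 for Odc1 (95% interval 0.04 to 1.80). Ito cells differed from both in Arg1, by 7.37 ± 0.59 over HGF and 8.17 ± 0.59 over CD146 cells, and in Nos2, which was at least 1.79-fold and 1.72-fold higher with Ito cells, the other groups being under the negative controls, while the other 4 genes did not pass in either comparison and the Arg1 differences are at least 149-fold and 143-fold from the negative controls (2.92% and 3.08% of all genes passed). In monocytic macrophages of 3 days Arg1 was lower with HGF than with Ito cells (-2.41 ± 0.59, adjusted p = 0.0111; -2.27 and adjusted p = 0.0526 without HGF replicate 1), in a comparison where 4.54% of all genes passed. Nos2 passed there too, with both groups under the negative controls. CD146 cells stood apart there in 3 genes: Arg2 was higher and Slc7a1 and Odc1 lower than with HGF (at least 40.6-fold for Arg2 and 5.34-fold for Slc7a1, and 2.54 ± 0.44 for Odc1, HGF minus CD146) and than with Ito cells (at least 42.1-fold and 3.6-fold, and 2.18 ± 0.44 for Odc1, Ito minus CD146), where 17.3% and 11.3% of all genes passed. Without the 3 arrays that stood apart, Arg1 also passed in monocytic macrophages of 3 days. It differed by -1.48 as HGF minus CD146 (adjusted p = 0.000469) and by 0.93 as Ito minus CD146 (adjusted p = 0.038). Arg2 then passed there as HGF minus Ito (-0.87, adjusted p = 0.0486), with both groups under the negative controls. In Kupffer cells of 3 days Odc1 then passed as HGF minus CD146 (0.92, adjusted p = 0.0409). At 1 day the additions differed in Arg2, Nos2 and Odc1. Without the arrays that stood apart Arg1 also passed in Kupffer cells (1.47 ± 0.36, HGF minus CD146, adjusted p = 0.00293). So did Slc7a2 (-1.28 ± 0.31, adjusted p = 0.00213) and Odc1 (-1.08, adjusted p = 0.00611), both HGF minus Ito. In monocytic macrophages Slc7a1 (-0.83, adjusted p = 0.0378) and Slc7a2 (-0.77, adjusted p = 0.0178) then passed as HGF minus CD146, where the median gene differed by -0.60. Slc7a2 (-0.76, adjusted p = 0.0403) and Odc1 (-1.08, adjusted p = 0.00311) passed as HGF minus Ito, and Odc1 as Ito minus CD146 (1.16, adjusted p = 0.000887). In Kupffer cells Arg2 was lowest with CD146 cells, at least 2.48-fold under HGF and 8.12-fold under Ito cells, and it was lower with HGF than with Ito cells (-1.71 ± 0.53; -1.42 and adjusted p = 0.0575 without HGF replicate 3). Nos2 was at least 5.9-fold higher with Ito cells than with HGF and at least 4.79-fold higher than with CD146 cells. Odc1 was higher with Ito cells than with CD146 cells (2.31 ± 0.44) and higher with HGF than with CD146 cells (1.43 ± 0.44; 1.23 and adjusted p = 0.0819 without HGF replicate 2). In monocytic macrophages Arg2 was at least 3.23-fold higher with HGF, and 3.54-fold higher with Ito cells, than with CD146 cells. Nos2 was at least 1.56-fold higher with Ito than with CD146 cells, and its difference between HGF and Ito cells (-1.17 ± 0.41) was lost without any 1 of 5 of the 6 arrays (-0.88 to -1.30), with quantile normalisation (-0.93), with median centring (-0.83) and without the dimmest 25% of genes (-1.17, adjusted p = 0.0607). Of all genes 35.3% passed between HGF and Ito cells in Kupffer cells, 26.9% between HGF and CD146 cells and 27.4% between Ito and CD146 cells, and in monocytic macrophages 14.1%, 46.9% and 19.8%. Of the 72 pairs of both days, 23 passed (14 higher, 9 lower), against 17.6% over all genes (5.21% higher and 12.4% lower), and with median centring 15 were higher and 9 lower while the share of higher calls over all genes went from 29.6% to 55.3%.

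Other genes of arginine handling were counted from a fixed list. Of 22 enzymes and transporters of the wider pathway, 3, 4 and 3 were higher and 4, 4 and 4 lower in Kupffer cells of 3 days with HGF, Ito cells and CD146 cells, near the shares of 27.6%, 26.8% and 26.4% over all genes. Slc7a7, which carries arginine out of macrophages, fell in all 3 (-2.67 ± 0.35, -2.03 ± 0.35 and -3.22 ± 0.35), and so did Gamt, an enzyme of creatine synthesis (-1.77, -1.58 and -1.37, each ± 0.32). Prmt1, which methylates protein arginine, rose (2.17, 1.11 and 2.07, each ± 0.29). Ddah1, which breaks down the methylarginines that inhibit nitric oxide synthase, rose with HGF (4.36 ± 0.43) and CD146 cells (2.37 ± 0.43). In monocytic macrophages of 3 days, where 13%, 12.5% and 2.4% of all genes passed, 5 were higher and 2 lower with HGF, among them argininosuccinate lyase (Asl), 1.39 ± 0.36 higher, and ornithine aminotransferase (Oat), 1.08 ± 0.31 higher. With Ito cells 6 were higher and 2 lower, and with CD146 cells 0 of 22 passed in limma, 3 of them having an unadjusted p under 0.05. In 4 of these 6 comparisons 1 of the genes that passed had both group means under the negative controls. The medians of the 22 genes lay between -0.05 and 0.14 in these 6 comparisons, where the medians of all genes lay between -0.02 and 0.11.

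Downstream of Odc1, 12 of 17 listed polyamine and proline genes were measured. In Kupffer cells of 3 days 5, 4 and 5 of them were higher and 3, 2 and 1 lower with HGF, Ito cells and CD146 cells, against 27.6%, 26.8% and 26.4% of all genes that passed. Spermidine synthase (Srm) rose by 3.70, 3.42 and 3.68 (each ± 0.31), spermine synthase (Sms) by 2.78, 2.69 and 2.83 (each ± 0.29), and Azin1, which protects ornithine decarboxylase from its antizyme, by 2.70, 2.45 and 2.56 (each ± 0.34). The antizyme gene Oaz2 fell with HGF and CD146 cells (-1.29 ± 0.32 and -1.24 ± 0.32) and with Ito cells, where it was under the negative controls, by at least 2.51-fold. In monocytic macrophages Srm rose with HGF (1.89 ± 0.31) and Ito cells (2.19 ± 0.31), and with CD146 cells 1 of 12 passed, the spermine oxidase Smox (1.02 ± 0.28, adjusted p = 0.037). At 1 day Smox was the 1 gene of this list that rose with Ito cells in each origin (3.45 ± 0.28 in Kupffer cells and 1.72 ± 0.28 in monocytic macrophages). Srm, which passed beside Odc1 in these comparisons, was also 3.87 ± 0.44 higher in the Kupffer than in the monocytic response to CD146 cells.

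Of the 7 listed genes that make or recycle tetrahydrobiopterin, the cofactor of nitric oxide synthase, 6 were measured. GTP cyclohydrolase (Gch1), which starts the synthesis, fell in Kupffer cells of 3 days with HGF (-1.31 ± 0.28), Ito cells (-1.45 ± 0.28) and CD146 cells (-1.60 ± 0.28), the additions with which Nos2 was lower. In monocytic macrophages it was 0.82 ± 0.28 higher with HGF (adjusted p = 0.0424). Pts also fell in Kupffer cells of 3 days with HGF (-1.30 ± 0.37). Pcbd1 went the other way there, near the floor. It was at least 1.37-fold higher with HGF, and it passed as higher with CD146 cells (means 5.60 and 4.72). In the Kupffer control from 1 to 3 days Qdpr, Spr and Pts were higher and 0 of 6 lower, where 31.8% of all genes passed.

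Of 22 listed receptors and transcription factors known to act on Arg1 or Nos2, 19 were measured. In Kupffer cells of 3 days 4, 5 and 4 were higher and 11, 10 and 11 lower with HGF, Ito cells and CD146 cells, with medians of -0.93, -1.07 and -1.18. Of all genes 27.6%, 26.8% and 26.4% passed there. Among those lower were the interferon gamma receptor chain Ifngr2 (-2.04, -2.22 and -2.04, each ± 0.21) and the interleukin 13 receptor chain Il13ra1 (-2.44, -2.34 and -2.56, each ± 0.29). Pparg, a nuclear receptor of alternatively activated macrophages, rose from a control under the negative controls by at least 14.4-fold, 11.1-fold and 21.1-fold, and Myc rose by 5.57, 6.34 and 6.04 (each ± 0.49). In monocytic macrophages 4, 2 and 2 were higher and 3, 4 and 0 lower, against 13%, 12.5% and 2.4% of all genes that passed. With CD146 cells these were Hif1a (1.42 ± 0.28) and Epas1 (1.27 ± 0.35), both hypoxia-inducible factors, and Hif1a fell in Kupffer cells with all 3 additions (-2.59, -2.35 and -1.90, each ± 0.28). Myc, a known activator of Odc1, rose in monocytic macrophages with HGF (2.26 ± 0.49, with overlapping groups) and Ito cells (3.77 ± 0.49).

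The 6 genes followed each other to unequal degrees. Across the 16 group means Slc7a1 and Odc1 had a Pearson correlation of 0.70, Arg1 and Slc7a2 of 0.69, Arg1 and Nos2 of 0.25, and Arg2 and Slc7a1 of -0.79. Within the 8 Kupffer groups Slc7a1 and Slc7a2 reached -0.95, and within the 8 monocytic groups -0.26. These are descriptions over means that share cultures and scaling. Among the 16635 genes whose means span at least 1 log2 unit, those closest to Arg1 were the integrin Itgam (0.920), the chemokine receptor Ccr1 (0.915) and Gpr35 (0.914). Closest to Arg2 were the major histocompatibility genes H2-Q4 (0.899) and H2-K1 (0.888), then Tnfaip2 (0.886). Closest to Nos2 were Sgms2 (0.875), Tma16 (0.873) and the interferon-induced Gbp4 (0.868). Slc7a2 was closest to the paired receptors Pilrb2 (0.979) and Pilra (0.966) and to Prg4 (0.959). Slc7a1 was closest to spermidine synthase Srm (0.951), Rpa2 (0.951) and Prim1 (0.948), the latter pair with roles in DNA replication, and Odc1 to Ifrd1 (0.928), Uck2 (0.895) and Ppa1 (0.883).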

How the data were processed

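Total RNA of each culture was labelled and hybridised to an Affymetrix mouse array, per the labels' protocols. The authors deposited log2 signals, normalised by RMA in Transcriptome Analysis Console, per the submitters' processing notes; their version and the genome build are not given in the sources used here. Whether all arrays were normalised together is not stated, and they do not share 1 distribution, so shifts of the median gene between groups are printed where they exceed 0.1. Of 28846 probe sets, 6640 were controls and 19572 carried a gene symbol, for 19505 genes; for the 55 genes with several, the one with the highest mean was kept. The 6 genes measured had 1 each. No deposited value was rescaled or filtered. limma 3.58.1 in R 4.3.3 fitted 1 mean per group on all 48 arrays, with moderated, two-sided tests of 46 comparisons and Benjamini-Hochberg adjustment over all genes within each, at 0.05. The number of arrays limits the precision. Where 1 group lay under the mean of the negative control probes, folds were measured from that mean and written "at least"; probe sets differ in background, so it is an approximate floor.

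The genes followed, the pathway and marker lists and the comparisons were chosen with earlier results of these data known. Beyond the 6, up to 3 genes per list, direction and comparison with the smallest adjusted p were named (Hif1a with CD146 cells in Kupffer cells was added after its value was seen), and the 3 genes with the highest Pearson correlation to each. Of 120 pairs of groups, 1 had all 3 equally numbered arrays correlating over 0.1 in their deviations, so replicate numbers were not used as pairs. No 2 arrays were identical. Tested on simulated data for monocytic macrophages with Ito cells against control at 3 days, over 19505 genes, the fit recovered 39 of 100 genes changed 2-fold and 93 of 100 changed 4-fold. It also called 8 unchanged genes. The simulated noise was normal and independent, with 1 spread per gene in all groups and no array that stood apart. These rates may therefore not hold for the measured arrays. Alternatives were quantile normalisation, median centring, a filter on dim genes, a trended robust variance, weights per array, a block on the replicate number, every probe set, a fit on just the compared arrays, the omission of any 1 array, and the omission of the 3 arrays that stood apart, the last chosen after seeing the data.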

Additional observations from a re-analysis of the deposited data

Results flagged for a closer look

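At 3 days the response of Kupffer cells to an addition differed from that of monocytic macrophages in 15 of 18 gene and addition pairs, by limma's test of the difference itself, and each is given here as the Kupffer response minus the monocytic one. The origins answered with opposite signs in Arg1 with HGF (-9.19, adjusted p = 3.48e-11) and with CD146 cells (-11.48, adjusted p = 7.05e-14), and both raised Arg1 with Ito cells, the monocytic cells more (-4.24, adjusted p = 0.000319). Arg2 differed with Ito cells (-2.98, adjusted p = 0.00616; -2.02 and adjusted p = 0.00083 when the 3 arrays that stood apart were left out) and with CD146 cells (-8.53, adjusted p = 1.32e-11), where it fell in Kupffer cells and rose in monocytic macrophages. Nos2 differed with HGF (-2.89, adjusted p = 0.000292), Ito cells (-2.30, adjusted p = 0.00582) and CD146 cells (-3.60, adjusted p = 5.53e-06), and its monocytic groups were all under the negative controls. Slc7a2 differed with HGF (-9.43, adjusted p = 1.75e-08), Ito cells (-10.33, adjusted p = 2.89e-09) and CD146 cells (-10.61, adjusted p = 5.64e-10), where no monocytic difference had passed. Slc7a1 differed with CD146 cells (3.14, adjusted p = 7.62e-05). Odc1 differed with HGF (2.38, adjusted p = 0.00485), Ito cells (1.95, adjusted p = 0.0379) and CD146 cells (4.00, adjusted p = 2.43e-06). The Odc1 difference with Ito cells was lost without any 1 of 8 arrays, with values of 1.58 to 2.02: replicates 2 and 3 of either control, and replicates 1 and 3 of either group with Ito cells. It was lost with median centring too (1.81), and was 1.58 (adjusted p = 0.00357) without the arrays that stood apart. Without those arrays the other 13 also passed: Arg1 gave -9.47, -4.51 and -11.75 with HGF, Ito cells and CD146 cells, Arg2 -7.56 with CD146 cells, Nos2 -2.99, -2.40 and -3.70, Slc7a2 -9.57, -10.48 and -10.76, Slc7a1 2.88 with CD146 cells, and Odc1 2.02 and 3.63 with HGF and CD146 cells. Where a group lies under the negative controls these are differences of fitted signals and not measured folds. The part of other cells in the cultures was not tested.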

How the results depend on the processing

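Of 133 calls on the 6 genes over all comparisons, 105 were kept under every alternative tried. The number kept and lost was 124 and 9 with quantile normalisation, 129 and 4 with median centring, 132 and 1 without the dimmest 25% of genes, 132 and 1 with a trended robust variance, 131 and 2 with array weights, 133 and 0 with every probe set, 121 and 12 with only the arrays compared, and 129 and 4 without the 3 arrays that stood apart. The comparisons of additions against each other gave 35 calls, against 23, both without those 3 arrays and with only the arrays compared. Arg2 from 1 to 3 days in the monocytic control changed sign without the 3 arrays, from -0.09 to 0.87 (adjusted p = 0.0357). Leaving out 1 array at a time gave 33 to 40 calls for additions against control, 37 to 42 for 3 days against 1 day, 19 to 25 for Kupffer against monocytic, 20 to 30 for additions against each other and 14 to 21 for the difference of responses. Over all genes, array weights raised the calls from 40724 to 69595 for additions against control, from 31002 to 46836 for Kupffer against monocytic, from 41105 to 64428 for additions against each other and from 13631 to 24636 for the difference of responses. Quantile normalisation lowered additions against each other to 26006, and only the arrays compared lowered the difference of responses to 9014. The cause of these shifts was not tested.

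With the replicate number as a block all 133 calls were kept and 2 were gained, Arg1 between origins in the 1-day controls (-1.51, adjusted p = 0.049) and Nos2 between origins with Ito cells for 3 days (1.23, adjusted p = 0.0429), which made 35, 39, 23, 23 and 15 calls in the 5 families. Equally numbered arrays deviated together no more than others (mean correlation -0.0103 against 0.0055), so the numbers were not taken as a pairing. Arg1 near the end of the scale at 1 day, and Nos2, Arg2 and Slc7a2 near the negative controls, limit what differences could be seen there.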
